A study of Mus musculus with 18 samples.

Results

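Fibroblasts of the mouse mammary gland were examined at lactation and after involution, in cells that had been carried along in single-cell libraries prepared for the mammary epithelium. The members were chosen from measured values. In both lactation libraries (F11 and D6) and in the post-involution library, a cell was taken where it held 500 or more genes, under 20% mitochondrial UMIs (unique molecular identifiers, each standing for 1 captured transcript), 10 or more UMIs summed over Col1a1, Col1a2, Col3a1 and Dcn, at most 1 Epcam UMI and no Ptprc UMI. This gave 640 of the 22171 cells that passed the limits on genes and mitochondrial UMIs in these libraries, of 149371 barcodes in the whole series: 67 cells in F11, 441 in D6 and 132 after involution. Immune cells (1 or more Ptprc UMIs) and endothelial cells (2 or more UMIs of Pecam1 and Cdh5), both with at most 1 Epcam UMI, stood beside them.

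All libraries used here came from mammary glands of the FVB/NJ strain, and by the labels none carried an allele or agent that another lacked. The lactation libraries were labelled 10 days post birth and the post-involution library 3 weeks post birth. The study's methods give the same day for lactation, other passages of its text give other times, and the post-involution time is counted there from weaning. Adult virgin glands of 10 weeks (A10, P7 and D12) served as a replicated reference, and glands at pregnancy day 18.5 (F4 and B4) entered the fit to share 1 estimate of spread. Mice were pooled for each stage, in numbers on which the study's passages differ, and the sort discarded Ter119+, CD31+ and CD45+ cells and kept cells by CD24 and CD29, so the number of fibroblasts, immune or endothelial cells says nothing of their number in the gland. With 1 post-involution library, stage and library cannot be told apart, and p-values rest on the spread between the other libraries.

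Fibroblasts make the connective tissue matrix that surrounds mammary ducts and alveoli. They secrete collagens, the proteoglycans that space the fibrils, and the enzymes that trim, cross-link and degrade both, together with growth factors, WNT antagonists and IGF binding proteins that act on the neighbouring epithelium. In many mouse tissues a Pi16+ Dpp4+ state and a Col15a1+ state, the latter lying close to basement membranes, are known among them. Lactation is a time of dense secretory alveoli with little stroma between them, and involution removes the alveoli and rebuilds stroma and fat.

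The label held against the marker genes. Dpt (dermatopontin, a collagen-binding matrix protein), which the rule did not use, was at 644, 1221 and 1432 CPM in fibroblasts of F11, D6 and the post-involution library, where CPM is the usual scaled UMI count of a summed library, computed after the 8 casein, Wap, Lalba and Glycam1 genes were left out. Clec3b (tetranectin) was at 2632, 2658 and 2345 CPM. In immune and endothelial cells of the same libraries both genes were between 0 and 7.36 CPM. At least 1 Clec3b UMI was found in 91, 94.1 and 89.4% of the fibroblasts.

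Depth and milk differed between the libraries. A fibroblast held a median of 1435 UMIs without milk genes in F11, 2213 in D6 and 4048.5 after involution, and milk genes made up 34.0%, 9.74% and 0.221% of all UMIs of these cells. A minimum of 10 collagen and decorin UMIs was therefore a higher proportion of a cell's UMIs in F11 than after involution. The share of passing cells that met the rule was 1.25% (95% exact binomial interval 0.973 to 1.59%, counting error only) in F11, 6.53% (5.96 to 7.15%) in D6 and 1.31% (1.10 to 1.55%) after involution. D6 thus had the larger share while F11 and the post-involution intervals overlapped. Immune cells numbered 18, 229 and 2, endothelial cells 157, 738 and 33. In adult D12 and in F4 and B4, 91.7%, 80% and 92.1% of the cells that met the rule held 2 or more keratin UMIs. The members of these libraries were thus mostly cells with epithelial transcripts. In adult A10 and P7 the share was 23.4% and 19.4%, and in the lactation and post-involution libraries it was 2.04 to 14.4%. The lactation and post-involution libraries shared 134 to 164 barcodes pairwise, against 143 to 164 if barcodes were drawn at random from the kit's pool.

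At the edge of the rule, cells with 10 or 11 collagen and decorin UMIs numbered 8, 13 and 4 in F11, D6 and post-involution, and cells with 8 or 9 numbered 1, 10 and 3. In D6, Dpt was at 1631 CPM just inside the limit and 1638 CPM just outside, and Clec3b at 3304 and 3670 CPM. After involution Clec3b was at 965 CPM inside and 874 CPM outside, Dpt at 1447 and 525 CPM and the keratin gene Krt14 at 362 and 612 CPM. In D6, cells just outside the limit thus carried the fibroblast transcripts at like levels, while after involution Dpt was lower there and Krt14 higher, in 3 cells.

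The fibroblasts stood far from immune and endothelial cells in the same libraries. Since the rule picked the cells on their counts, these levels are a description without a test. Col1a1 and Col1a2, the chains of type I collagen, were at 2439, 2334 and 1193 CPM and at 3065, 4042 and 2111 CPM in F11, D6 and post-involution. Col3a1, the chain of type III collagen, was at 5117, 6275 and 2881 CPM, and Dcn (decorin, a small proteoglycan on collagen fibrils) at 8071, 7875 and 6034 CPM. All 4 were used by the rule. In endothelial cells Col3a1 was at 36.8, 54.4 and 41.9 CPM and Dcn at 41.7, 37.2 and 10.5 CPM.

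**Figure D1:**
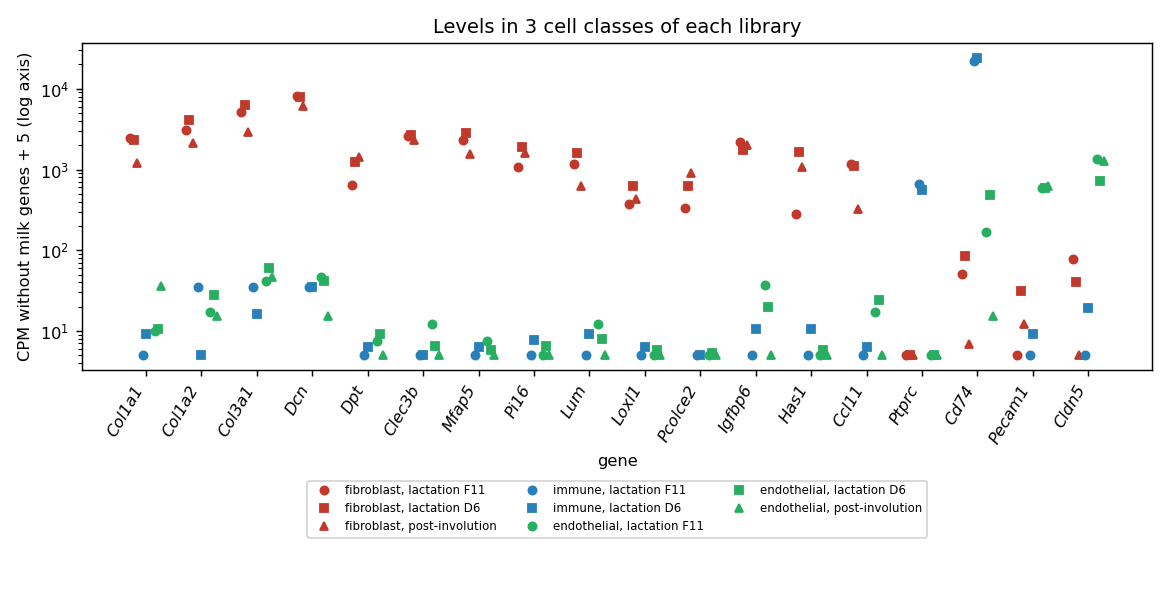
Levels of fibroblast, immune (Ptprc, Cd74) and endothelial (Pecam1, Cldn5) genes in CPM without milk genes, with 5 CPM added, on a log axis. Each point is the sum over the cells of 1 class in 1 library; the 2 immune cells of the post-involution library are not drawn. Clec3b was between 2345 and 2658 CPM in fibroblasts and at most 7.36 CPM in the other classes.

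Of 8915 genes with 10 or more UMIs in the fibroblasts, 434 (4.87%) were 2-fold or more above both immune and endothelial cells in each of the 3 libraries, with 5 CPM added to both sides. The 12 genes with the largest ratio in their lowest library were Mfap5, Clec3b, Pi16, Ptx3, Lum, Dpt, Loxl1, Pcolce2, Igfbp6, Has1, Dpep1 and Ccl11, with lowest ratios from 308 down to 46.3. Mfap5, a microfibril protein of elastic fibres, was at 2292, 2858 and 1567 CPM against 0 to 2.45 CPM in immune and endothelial cells. Pi16 (peptidase inhibitor 16) was at 1058, 1882 and 1593 CPM and Lum (lumican, another collagen-fibril proteoglycan) at 1150.4, 1581 and 624 CPM. Loxl1, a cross-linking enzyme of elastin and collagen, was at 368, 625 and 429 CPM, and Pcolce2, an enhancer of procollagen cleavage, at 331, 623 and 909 CPM. Has1, a hyaluronan synthase, ranged more widely between the lactation libraries, at 276, 1627 and 1076 CPM, as did Ptx3 (pentraxin 3, an innate immune and hyaluronan-binding protein) at 690.2, 2532 and 1752 CPM. In F11, 38.7% of the Ptx3 UMIs came from 1 cell. Ccl11 (eotaxin, an eosinophil chemokine) was at 1169, 1113 and 317 CPM, with both lactation libraries above the post-involution library. The immune values after involution rest on 2213 UMIs, so the ratio there was set mainly by 33 endothelial cells.

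Matrix genes of several kinds were among these 434. All 16 genes of the collagen list were measured, and 11 were 2-fold or more above the other classes in each library; Col4a1, Col4a2 and Col15a1, basement membrane collagens that endothelial cells also make, were among the exceptions. Of 8 measured small leucine-rich proteoglycans 5 met the same mark, of 12 elastic fibre genes 8, of 16 matrix proteases 9, of 11 protease inhibitors 6 and of 8 complement genes 6. The collagen count includes Col1a1, Col1a2 and Col3a1, and the proteoglycan count includes Dcn. The rule used these genes to choose the cells, so their ratios were fixed in advance. Among the proteases, Mmp2 (gelatinase A) was at 617, 483 and 338 CPM and Htra3 at 488, 566 and 527 CPM. Serping1, the C1 inhibitor, was at 1555, 1589 and 1427 CPM. None of 16 immediate early and heat shock genes met the mark. Fos, an early response gene often raised by tissue dissociation, was at 5889.9, 3579.6 and 3808 CPM in fibroblasts and 4074, 4531 and 8024 CPM in endothelial cells.

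Among the fibroblasts themselves, fewer cells of D6 and post-involution held both Pi16 and Col15a1 than an independent spread of the genes would give. The promoters of both genes are shown because the cells were divided by these genes. They are given in RefSeq's GRCm38.p6 build, each with the start site near its 3′ end, and capitals mark a CCAAT box, the letters CCAAT on either strand. Of 32851 promoters of the same length, 37.4% hold CCAAT. Pi16 lies at chr17:29318632-29318931 on the + strand and Col15a1 (collagen type XV alpha 1, a basement membrane zone collagen) at chr4:47207762-47208061 on the + strand.
Pi16: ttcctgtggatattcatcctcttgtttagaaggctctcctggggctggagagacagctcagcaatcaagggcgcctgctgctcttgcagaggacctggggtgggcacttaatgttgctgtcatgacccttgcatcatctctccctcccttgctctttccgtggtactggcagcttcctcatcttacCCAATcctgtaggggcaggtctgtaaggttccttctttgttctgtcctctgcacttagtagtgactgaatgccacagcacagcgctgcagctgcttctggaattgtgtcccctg
Col15a1: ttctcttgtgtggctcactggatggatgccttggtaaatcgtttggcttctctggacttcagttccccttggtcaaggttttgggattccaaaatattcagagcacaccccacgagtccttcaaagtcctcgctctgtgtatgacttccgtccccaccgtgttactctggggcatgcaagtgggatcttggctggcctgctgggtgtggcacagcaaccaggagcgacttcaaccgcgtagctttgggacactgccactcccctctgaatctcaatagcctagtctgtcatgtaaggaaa
In these windows 1 CCAAT stands before Pi16 and none before Col15a1.

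With 1 or more UMIs of a gene counted as its presence, 20 cells of F11 held Pi16 alone, 12 Col15a1 alone and 11 both. In D6 the numbers were 244, 80 and 38, and after involution 87, 9 and 2. If both genes were spread over cells independently, 10.6, 75.5 and 7.42 cells would hold both, so the overlap was below that in D6 and after involution and close to it in F11, whose cells were the shallowest. Each cell was also thinned to 1000 UMIs without milk genes, which left out 4, 11 and 1 shallower cells. Pi16 was then found in 39.7% (95% exact interval 27.6 to 52.8%) of F11 fibroblasts, 56.3% (95% exact interval 51.4 to 61%) of D6 fibroblasts and 56.5% (95% exact interval 47.6 to 65.1%) after involution. Unthinned, the shares were 46.3, 63.9 and 67.4%. In thinned endothelial cells, which should lack it, Pi16 was found in 0 of 147 in F11, where a limit of 3 counts allows a share of up to 2.04% of cells with a UMI, in 0.140% of 712 in D6 and in 0 of 32 after involution, which allows up to 9.38% by the same limit.

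Col15a1 was found in 27% (95% exact interval 16.6 to 39.7%) of thinned F11 fibroblasts, 14.7% (95% exact interval 11.4 to 18.4%) of those of D6 and 4.58% (95% exact interval 1.7 to 9.7%) of those after involution. Unthinned, the shares were 34.3, 26.8 and 8.33%. The intervals cover counting error over the cells of 1 library each and say nothing of the spread between glands. Endothelial cells, a known source of this collagen, held it in 11.6%, 9.69% and 9.38% of thinned cells, so the share after involution was not above theirs. In immune cells, Col15a1 was at 0 and 4.22 CPM in F11 and D6.

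The division by Pi16 and Col15a1, which was chosen with the values seen, went with a small part of the other genes in the same direction in all libraries. Of 3147 genes with 50 or more UMIs in these cells, 45 were over 2-fold higher in Pi16-only cells in each library and 24 over 2-fold higher in Col15a1-only cells, with 50 CPM added. These are descriptions of the same cells, and the values of Col15a1-only cells rest on 12 cells in F11 and 9 after involution. In F11, 2 UMIs against 0 already exceeded 2-fold, as for Serpine2 (log2 1.18). How many genes another division of the cells would give was not tested. Igfbp5, an IGF binding protein, stood first on the Pi16 side with log2 ratios of 4.76 in D6 and 3.31 after involution, and in F11 it had 44 UMIs in Pi16-only cells and 0 in Col15a1-only cells. In D6 it was at 4388 CPM in Pi16-only cells and 114 CPM in Col15a1-only cells. Sema3c, a secreted guidance cue, gave 3.56 and Anxa3 (annexin A3) 3.04 in D6. Both belong to the list of the Pi16 Dpp4 state, as does Cd55 (complement decay accelerating factor) at 2.60 and Dpp4 (a cell surface dipeptidase) at 1.59 in D6. In the other libraries these genes rested on 0 to 2 UMIs in Col15a1-only cells, so the size of their ratios there was set mainly by the 50 CPM added.

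On the Col15a1 side stood the type IV collagen chains Col4a1 (-2.83, -2.84 and -2.35) and Col4a2 (-1.59, -2.95 and -2.89), which form basement membrane. Lpl, the lipoprotein lipase that releases fatty acids from circulating fat, gave -3.29, -2.30 and -1.85, and Cxcl12, a chemokine of stromal cells, gave -1.46, -1.91 and -1.67. Sparcl1, an adhesion-modulating matrix protein, and Hsd11b1, which regenerates active glucocorticoid, were among the 12 leading genes. Lum, outside those 12, gave -1.33, -1.89 and -2.26, and the fibrillar collagens also lay there: Col3a1, which the rule used, gave -0.81, -1.79 and -2.60. Early response genes lay there too, with Jun at -0.77, -1.91 and -2.28 and Fos at -0.34, -1.18 and -1.77. Not all of them did, since Ier3 gave 1.20, 0.87 and -0.44. The list of the Col15a1 state was not uniform: Hspg2 (perlecan) gave -1.29, -1.70 and 0.02, Penk (proenkephalin) -0.49, 0.88 and 0.69 and Gas6 1.20, -0.26 and -0.21. In D6, Col15a1-only cells also held more endothelial and pericyte transcripts than Pi16-only cells, with Kdr at 212 and 5.24 CPM, Cdh5 at 170 and 14 CPM, Pecam1 at 98.1 and 1.75 CPM and Rgs5 at 258 and 33.2 CPM. In F11 and after involution the Col15a1-only cells had 0 UMIs of these 4 genes. The erythroid gene Hbb-bs was also higher in Col15a1-only cells of D6, at 5380 CPM against 1957 CPM in Pi16-only cells. The stricter cell rule was applied to this division after seeing the data and left 10, 69 and 7 Col15a1-only cells. With it, Kdr had 0 UMIs in those of D6. The pericyte gene Rgs5 kept 8 UMIs there against 8 in 233 Pi16-only cells. Hbb-bs turned, with 3 UMIs in the Col15a1-only cells of D6 against 1120 in the Pi16-only cells. Col4a1 gave -2.77, -3.00 and -2.01, Col4a2 -1.56, -2.98 and -2.92 and Lpl -3.16, -2.62 and -2.24. Fabp4, which endothelial cells hold at 36030, 41893 and 22889 CPM, then gave -1.76, -0.07 and -2.72.

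**Figure D2:**
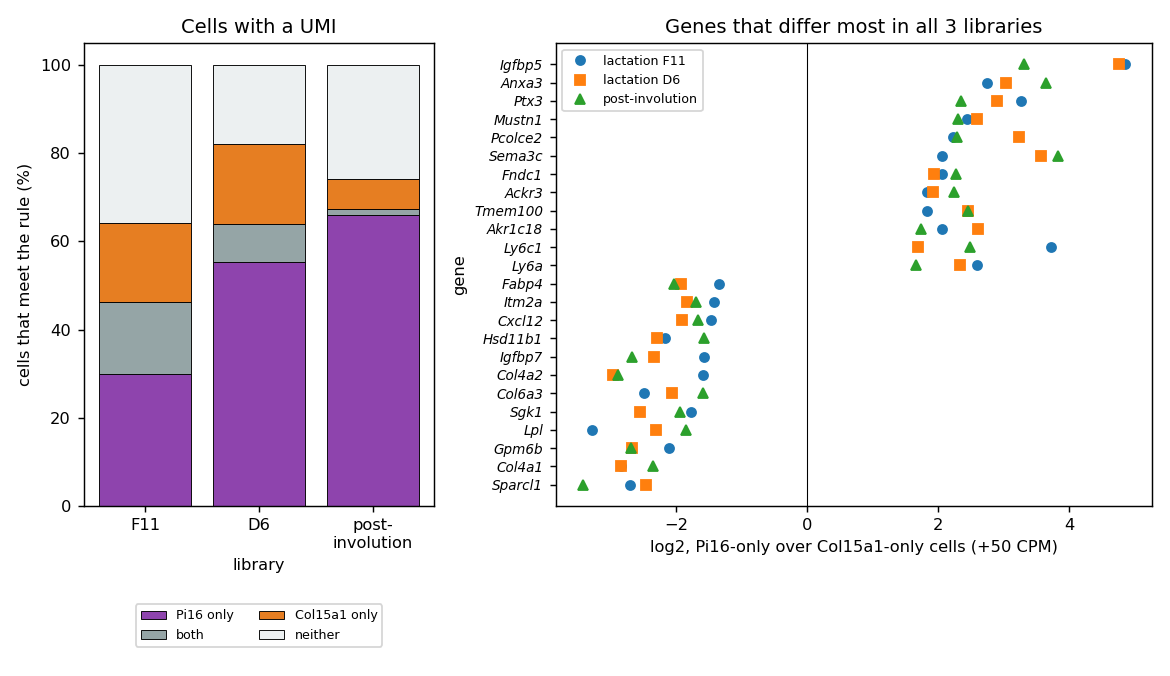
Left, share of fibroblasts (%) in each library with 1 or more UMIs of Pi16 only, of both genes, of Col15a1 only or of neither. Right, log2 ratio between Pi16-only and Col15a1-only cells, with 50 CPM added, for the 12 genes on each side whose ratio is largest in the weakest library; points are libraries. Igfbp5 lies farthest to the Pi16 side in D6, at 4.76; its F11 point rests on 0 UMIs in the Col15a1-only cells.

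Between lactation and post-involution, few genes passed the test and none of the matrix genes did. The fit used sums over the cells that met the rule in 8 libraries (3 adult, 2 of pregnancy day 18.5, 2 of lactation and 1 post-involution). It used edgeR's quasi-likelihood test with Benjamini-Hochberg adjustment over 7472 genes and had 4 residual degrees of freedom. In D12, F4 and B4 most of these cells held 2 or more keratin UMIs, so those sums are not of fibroblasts alone. At an adjusted p of 0.05, 4 genes (0.0535%) were called and all 4 were lower after involution, while 262 had an unadjusted p under 0.05. None met the naming rule, which asked for at least 2-fold more CPM in the fibroblasts than in the immune cells, so they are named here as a count of 5 or fewer, with their values seen. Cidea, a lipid droplet protein, was at 1638, 198 and 0 CPM in fibroblasts of F11, D6 and post-involution, but at 6558 and 6252 CPM in epithelial cells of F11 and D6. It was at least 60.7-fold lower after involution, taking 3 counts for the count of 0 in that library (edgeR adjusted p = 0.037). Wfdc17, a secreted antiprotease-like protein, was at 460.1, 318 and 0 CPM (at least 60.5-fold lower, edgeR adjusted p = 0.0089), against 4931 and 4027 CPM in epithelial cells. Lao1, an amino acid oxidase of milk, was at 1196, 182 and 1.82 CPM (edgeR adjusted p = 0.036), against 4722 and 6893 CPM. Cfd (adipsin, the adipocyte complement factor D) was at 129, 158 and 0 CPM (at least 28.3-fold lower, edgeR adjusted p = 0.022), against 214 and 487 CPM in endothelial and 300.3 and 357 CPM in epithelial cells. By DESeq2, Cfd and Cidea did not pass (adjusted p = 0.0785 for both), and without D6 Cfd did not (edgeR adjusted p = 0.596). In the lactation libraries all 4 were higher in the epithelial cells than in the fibroblasts. No gene was called with the stricter cell rule (no Epcam, Pecam1 or Cdh5 UMI and at most 1 keratin UMI), where 121 had an unadjusted p under 0.05. That rule left 5 libraries in the fit (A10, P7, F11, D6 and post-involution), and the 4 genes had the same direction there. By contrast 88 were called when only the lactation and post-involution libraries were fitted and 27 without D12, F4 and B4.

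For the collagens, the post-involution library lay below both lactation libraries for 12 of 15 tested genes and above both for 3, where 28.7% of all genes tested lay below both and 34.6% above. Their median log2 difference was -1.02, against 0.00317 over all genes, and 0 of 15 passed the test. The list includes 3 of the rule's genes. Without them 9 of 12 lay below and 3 above, with a median log2 of -1.12. Col1a1 differed by log2 -0.96 ± 0.89 SE and Col1a2 by log2 -0.71 ± 0.92 SE. Col3a1 differed by log2 -0.94 ± 0.96 SE and Dcn by log2 -0.36 ± 1.01 SE. Their levels are given above, and no p-value is printed for them since the rule used these genes. Col15a1 was at 276, 213 and 34.7 CPM in F11, D6 and post-involution. Both lactation libraries were higher, by log2 -2.75 ± 0.75 SE on the post-involution minus lactation scale, and the difference did not pass (edgeR adjusted p = 0.318). Col4a1 was at 552, 771 and 108 CPM (log2 -2.59 ± 0.86 SE, edgeR adjusted p = 0.669). Col4a2 was at 571, 374 and 62 CPM (log2 -2.87 ± 0.94 SE, edgeR adjusted p = 0.659). Both were called in 1 of 18 other settings, the fit of the 3 libraries of the comparison alone, whose spread comes from F11 and D6 only.

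Genes of collagen folding and processing followed the same order for 9 of 15 members, with 3 above both lactation libraries and a median log2 of -0.579. Over all genes tested, 28.7% lay below both lactation libraries and 34.6% above. Sparc (osteonectin, a collagen chaperone of the matrix) was at 8540.3, 5986 and 1689.6 CPM, log2 -2.06 ± 1.03 SE (edgeR adjusted p = 1). It passed in 1 of 18 other settings, the fit of the 3 libraries alone, whose spread comes from F11 and D6 only. In endothelial cells it was at 6011, 5608 and 2399 CPM. Serpinh1, the collagen chaperone of the endoplasmic reticulum, was at 1417, 1394 and 615 CPM, again with post-involution lowest. Contractile and myofibroblast genes were below both lactation libraries for 4 of 7 members and above both for none. Of these, Postn (periostin) was at 607, 998 and 201 CPM (log2 -1.97 ± 0.82 SE, edgeR adjusted p = 1) and Cthrc1, a secreted protein of remodelling matrix, at 82.8, 133 and 23.7 CPM (log2 -2.21 ± 0.88 SE, edgeR adjusted p = 1). Among matrix proteases 9 of 16 were below and 2 above. Mmp3 (stromelysin 1) was at 764, 437 and 155 CPM. Elastic fibre genes showed no such order, with 4 below, 2 above and 6 between the lactation libraries.

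Among secreted regulators no gene passed the test. Of 8 tested WNT and TGF-beta modulators 5 were above both lactation libraries and none below, where 34.6% of all genes lay above and 28.7% below, with a median log2 of 1.15 that includes Wif1, which was at 0 in all 3 libraries. Sfrp2, a secreted WNT antagonist, was at 166, 219 and 1272 CPM (log2 2.75 ± 1.02 SE, edgeR adjusted p = 1), Sfrp1 at 82.8, 51 and 467 CPM (log2 2.93 ± 1.15 SE, edgeR adjusted p = 1) and Sfrp4 at 64.4, 239.8 and 555 CPM (log2 1.80 ± 0.73 SE, edgeR adjusted p = 1). Adult A10, P7 and D12 held Sfrp2 at 1727, 1852 and 152 CPM. After involution, 22% of the Sfrp2 UMIs came from 1 cell. Fst (follistatin, an activin antagonist) was at 101, 213 and 439.7 CPM. Of 8 IGF binding proteins and receptors, 5 were above and 1 below. Igfbp5 was at 506, 2562 and 5071 CPM (log2 1.74 ± 0.96 SE, edgeR adjusted p = 1), with endothelial and epithelial cells also highest after involution, and Igfbp3, the main carrier of IGF in serum, at 156, 42.5 and 513 CPM (log2 2.58 ± 0.80 SE, edgeR adjusted p = 0.544). Gas6, a ligand of the Axl and Mertk receptors that clear dying cells, was at 101, 50 and 449 CPM (log2 2.72 ± 0.83 SE, edgeR adjusted p = 0.519), again with the other classes highest after involution. Several of these differences moved with the lactation library used. Igfbp5 had log2 1.02 without F11 and 3.43 without D6, Sfrp4 had 1.24 and 3.21, and Igfbp3 had 3.62 and 1.82. Over 18 other settings, Sfrp2, Igfbp3, Igfbp5 and Gas6 passed in 1 and Sfrp1 in 2. For each gene this included the fit of the 3 libraries alone, whose spread comes from F11 and D6 only.

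**Figure D3:**
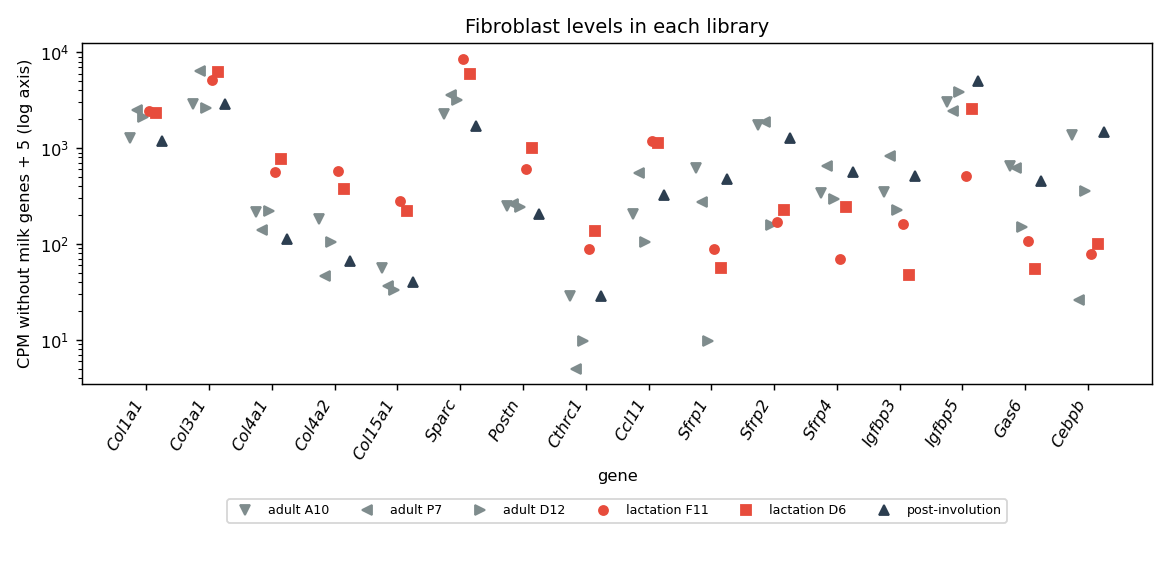
Fibroblast levels of matrix and secreted regulator genes in each library, in CPM without milk genes with 5 CPM added, on a log axis. Each point is the sum over the cells of 1 library that met the fibroblast rule, for 3 adult, 2 lactation and 1 post-involution library. Col15a1 was at 276 and 213 CPM in lactation and 34.7 CPM after involution; Sfrp2 was at 166 and 219 CPM against 1272 CPM.

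Of 16 listed growth factors for the epithelium 9 had enough counts to be tested, and of these 7 were above both lactation libraries and 2 below, against 34.6% above and 28.7% below over all genes. Igf1, which drives ductal growth, was at 184, 142 and 288 CPM. Fgf7 was at 18.4, 17 and 45.6 CPM and Wnt2 at 55.2, 68 and 89.4 CPM. Igf2 had no UMI in any of the 3 libraries. Receptors were above both lactation libraries for 6 of 11 members and below for 2. Pdgfra, the PDGF receptor used as a fibroblast marker, was at 230.1, 205 and 169.7 CPM against at most 0.736 CPM in endothelial cells, and Fgfr1 at 101, 292 and 352 CPM. Of 16 chemokines and inflammatory mediators 3 were above, 4 below and 9 between. Cxcl1, which attracts neutrophils, was at 1822, 3214 and 2489 CPM and Ccl2, which attracts monocytes, at 579.8, 2108 and 1350.2 CPM. Ccl11 differed by log2 -1.80 (edgeR adjusted p = 1). Pi16 differed by log2 0.15 ± 0.92 SE, Dpt by log2 0.65 ± 0.77 SE and Clec3b by log2 -0.13 ± 0.89 SE, each with an edgeR adjusted p of 1.

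The next lists held 0 calls between the stages, and several lay near the 34.6% above and 28.7% below of all genes tested. Protease inhibitors lay above both lactation libraries for 3 of 11 tested genes and below for 6, small leucine-rich proteoglycans for 3 and 3 of 8 (without Dcn, which the rule used), complement genes for 3 and 2 of 8, lipid carriers for 2 and 4 of 9, preadipocyte and adipocyte genes for 2 and 4 of 9, and mesenchymal transcription factors for 6 and 1 of 11. Lum was at 1150.4, 1581 and 624 CPM and C3, the central complement component, at 221, 404 and 535 CPM. The 9 genes of the Pi16 Dpp4 state lay above for 5 and below for 2, with a median log2 of 0.526, and the 7 genes of the Col15a1 state above for 2 and below for 4, with a median of -0.885. Immediate early and heat shock genes lay above for 3 and below for 5 of 16, and cell cycle genes above for 4 and below for 1 of 7.

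Some values moved across a whole library rather than in fibroblasts alone. Cebpb, a transcription factor of adipogenesis and acute response, was at 73.6, 94.4 and 1472 CPM in fibroblasts (log2 4.13 ± 1.26 SE, edgeR adjusted p = 0.516). Over 18 other settings Cebpb passed in 3, with log2 from 3.99 to 4.43. These included the fit of the 3 libraries alone, whose spread comes from F11 and D6 only. In endothelial cells it was at 41.7, 69.2 and 1027 CPM and in epithelial cells at 110.4, 283 and 1242 CPM, so the post-involution library was highest in each of these classes. Among the adult libraries it ranged over 1361, 20.7 and 351 CPM. Igfbp7, a matrix-bound IGF binding protein of vessels, was at 2853, 350.3 and 832 CPM in fibroblasts and 3978, 844 and 3069 CPM in endothelial cells, with D6 lowest in both. Igfbp5, highest after involution in fibroblasts, was at 61.4, 101 and 1142 CPM in endothelial cells and 236, 248 and 766 CPM in epithelial cells of F11, D6 and post-involution, so all 3 classes were highest after involution. Gas6 was at 22.1, 63.3 and 147 CPM in endothelial and 14.4, 14.5 and 128 CPM in epithelial cells, and Fst at 7.36, 6.62 and 31.4 CPM and 1.91, 0.793 and 73.7 CPM, in the same order as in the fibroblasts between the stages. Sfrp2 did not share it, at 4.91, 0.368 and 0 CPM in endothelial and 80.5, 53.2 and 6.35 CPM in epithelial cells. Jund, a subunit of the AP-1 transcription factor, was at 2209, 411 and 1885 CPM in fibroblasts and 1293, 368 and 2095 CPM in endothelial cells, again with D6 lowest.

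Genes of other cell types also differed between the libraries, though not all of them by stage. The 14 listed secretory alveolar genes other than the milk genes left out summed to 22428, 4673 and 1148 CPM in fibroblasts of F11, D6 and post-involution, and to 13708, 5053 and 765 CPM in endothelial cells. Of 13 tested, 11 were below both lactation libraries after involution and 2, Cidea and Lao1, were called. Over all genes tested, 28.7% lay below both and 0.0535% were called. Endothelial markers summed to 331, 295 and 21.9 CPM, with 91.7% of the F11 UMIs in 1 cell, with Pecam1 at 0, 26.4 and 7.3 CPM, and 13 of the 441 members of D6 also met the endothelial rule. Erythroid genes summed to 73.6, 4704 and 0 CPM. In D6, 5 of 441 members held 3 or more erythroid UMIs, and 1 cell held 38.6% of the erythroid UMIs. Immune markers summed to 82.8, 261 and 76.6 CPM, with 51.4% of the D6 UMIs in 1 cell. Epithelial markers summed to 607, 154 and 499.9 CPM, so post-involution lay between the lactation libraries. Of 9 tested epithelial markers 4 lay above both lactation libraries and 0 below, against 34.6% and 28.7% of all genes tested. Ptprc was at 0 by the rule, and Epcam was at 101, 15.1 and 49.3 CPM. Adipocyte markers summed to 36.8, 76.5 and 0 CPM, with Adipoq at 0, 5.67 and 0 CPM. Pericyte markers summed to 349.7, 162 and 126 CPM, with 60.5% of the F11 UMIs in 1 cell, and mesothelial markers to 0, 3.78 and 0 CPM. What part these genes have in the differences between stages was not tested.

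**Figure D4:**
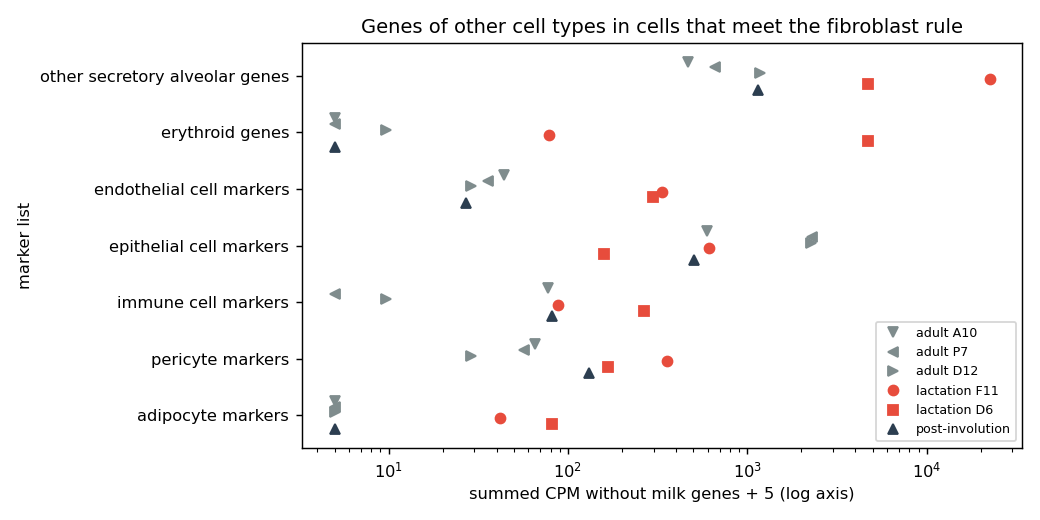
Summed levels of genes of other cell types in the cells of each library that met the fibroblast rule. Values are in CPM without milk genes with 5 CPM added, on a log axis. Points are the 3 adult, 2 lactation and 1 post-involution library. The secretory alveolar genes were at 22428 and 4673 CPM in the lactation libraries and at 1148 CPM after involution.

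Lactation fibroblasts differed from adult cells that met the rule in 85 genes (1.14% of those tested by edgeR), of which 61 (0.816%) rose and 24 (0.321%) fell. The adult cells included those of D12, of which 91.7% held 2 or more keratin UMIs. Listed genes of other cell types were among the rises. Of the 13 tested secretory alveolar genes 9 rose, of 4 erythroid genes 3, of 7 endothelial markers 2 and of 4 immune markers 2. The 5 largest rises under the naming rule were Saa3, Hbb-bt, Rgs5, Gpihbp1 and 8430408G22Rik. Saa3, an acute phase apolipoprotein, was at 5246 and 10.4 CPM in F11 and D6 and at 2.37, 0 and 0 CPM in adult A10, P7 and D12 (edgeR adjusted p = 0.00335), and 1 cell held 49.6% of its UMIs in F11. In epithelial cells it was at 3109 CPM in F11 and 15.1 CPM in D6, so F11 was the higher library in both classes, and without F11 it gave no value. Hbb-bt, a beta globin, was at 9.2 and 303 CPM and had no UMI in the adult libraries (edgeR adjusted p = 0.00335), with 1 UMI in F11 and 321 in D6, so its level rests on D6. There 5 of 441 members held 3 or more UMIs of the erythroid list, and 1 cell held 38.6% of the UMIs of that list. Rgs5, a pericyte gene, was at 212 and 104 CPM (at least 43.7-fold higher), Gpihbp1, the capillary anchor of lipoprotein lipase, at 193 and 115 CPM (at least 47-fold higher) and 8430408G22Rik at 156 and 71.8 CPM (at least 30.6-fold higher). In endothelial cells of F11 and D6, Rgs5 was at 712 and 871 CPM and Gpihbp1 at 5208 and 3079.7 CPM, above the fibroblasts. Of the pericyte list, which holds Rgs5, 3 or more UMIs were held by 2 members of F11 and 11 of D6. With DESeq2 the adjusted p was 1 for Hbb-bt, Rgs5, Gpihbp1 and 8430408G22Rik, and 0.0425 for Saa3. By edgeR, Rgs5 did not pass without F11 (adjusted p = 0.092) or without D6 (adjusted p = 0.198), nor did Gpihbp1 and 8430408G22Rik without D6 (adjusted p = 0.12 and 0.115).

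Some genes whose levels in lactation were higher in fibroblasts than in immune, endothelial and epithelial cells also rose, while none of the listed proteoglycans, elastic fibre genes and matrix proteases was called. Col15a1 was at 276 and 213 CPM in lactation and at 51, 31 and 28.4 CPM in the adult libraries, with no overlap (log2 2.65 ± 0.51 SE, edgeR adjusted p = 0.01). It was called alone among the 15 tested genes of the collagen list, whose median log2 was 1.25 (1.41 without the rule's genes) against -0.0277 over all genes. Outside that list, Col9a2 and Col11a1 fell. Its endothelial level in lactation, 90.8 and 117 CPM, was below the fibroblast level. Cthrc1 was at 82.8 and 133 CPM against 23.7, 0 and 4.74 CPM (log2 2.91 ± 0.66 SE, edgeR adjusted p = 0.0298). The next 3 genes were singled out after their values were seen. Smoc2, a calcium-binding matricellular protein, was at 304 and 428 CPM against 90.1, 51.7 and 19 CPM (log2 2.73 ± 0.61 SE, edgeR adjusted p = 0.0271). Svep1, a large adhesion protein, was at 138 and 93.5 CPM against 15.4, 41.4 and 4.74 CPM (log2 2.81 ± 0.60 SE, edgeR adjusted p = 0.0213), and Crabp1, a retinoic acid binding protein, at 64.4 and 68 CPM against 2.37, 0 and 0 CPM (log2 5.14 ± 0.86 SE, edgeR adjusted p = 0.00335). After involution Smoc2 was at 89.4 CPM, Svep1 at 43.8 CPM and Crabp1 at 5.47 CPM.

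These calls changed with the libraries and cells used. The setting without D12, F4 and B4, the libraries whose members mostly held keratin UMIs, was not among the planned ones. In that setting 82 genes were called, and Col15a1 had log2 2.54 with an edgeR adjusted p of 0.149. Smoc2, Svep1 and Cthrc1 did not pass either, with edgeR adjusted p from 0.126 to 0.27. Over the 18 other settings, Smoc2 passed in 10, Svep1 in 8 and Cthrc1 in 9. Under the stricter cell rule their log2 was 1.80, 2.63 and 2.75, and none passed (edgeR adjusted p of 0.469 or above). With the stricter cell rule 21 genes were called, and Col15a1 had log2 2.17 with an edgeR adjusted p of 0.832, so its difference was of like size. It was 0.0728 without F11 and 0.12 without D6, and over all 18 other settings Col15a1 passed in 12. Crabp1 passed in 16, and did not with the stricter rule (edgeR adjusted p = 0.0972) or without D6 (edgeR adjusted p = 0.379).

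For the falls from adult to lactation, the condition on immune cells could not be applied, since A10 held 1 immune cell and P7 and D12 none, so the 5 largest falls are given by size alone. Wif1, a WNT inhibitor, was at 37.9, 228 and 71.1 CPM in A10, P7 and D12 and had no UMI in lactation (at least 23.3-fold lower, edgeR adjusted p = 0.00335). Wfdc2 was at 20.1, 10.3 and 199 CPM, Mia at 40.3, 20.7 and 123 CPM, Areg (amphiregulin, an EGF receptor ligand of ductal growth) at 36.7, 114 and 42.7 CPM and Col9a2 at 27.3, 72.4 and 56.9 CPM, each with no UMI in lactation and at least 14.2-fold lower. None of the 5 passed without D6, with edgeR adjusted p from 0.47 (Wif1) to 0.682 (Wfdc2), though all 5 still had no UMI in lactation. With the stricter cell rule none of the 5 gave a value. Of the adult members, 23.4% in A10, 19.4% in P7 and 91.7% in D12 held 2 or more keratin UMIs. The study lists Areg among genes associated with mature luminal epithelial cells. What part epithelial transcripts have in these falls was not tested. Wfdc2 passed in 8 of 16 other settings, with an adjusted p of 0.212 by DESeq2 and 0.116 by edgeR without D12, F4 and B4. The 9 tested epithelial markers had lower fitted values in lactation than in adult in all 9 cases, with 0 called. Their sum was 593, 2276 and 2252 CPM in adult A10, P7 and D12 and 607 and 154 CPM in F11 and D6, so F11 lay above A10.

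Whether a stage difference was larger in fibroblasts than in other cells of the same libraries could not be tested against immune cells, of which F11 held 18 and the post-involution library 2. Against endothelial cells, in A10, F11, D6 and post-involution with the library as a block, the change differed for 34 of 9057 genes (0.375%, edgeR quasi-likelihood test, Benjamini-Hochberg adjusted), with 1 residual degree of freedom and 33 endothelial cells after involution. Igfbp3 was at 156, 42.5 and 513 CPM in fibroblasts of F11, D6 and post-involution and at 145, 141 and 41.9 CPM in endothelial cells, so that fibroblasts were higher after involution and endothelial cells lower. Postn was at 607, 998 and 201 CPM in fibroblasts and 54, 67.3 and 147 CPM in endothelial cells, the opposite order. Mmp2 in endothelial cells was at 9.82, 4.41 and 73.3 CPM and Fbln2 (fibulin 2, an elastic fibre and basement membrane protein) at 29.5, 12.1 and 126 CPM, both highest after involution, against 617, 483 and 338 and 349.7, 517 and 317 CPM in fibroblasts. The post-involution endothelial values rest on 4 UMIs of Igfbp3, 14 of Postn, 7 of Mmp2 and 12 of Fbln2. A10 had terms of its own in that fit, so its spread comes from F11 and D6 only.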

How the data were processed

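Single cells were captured by 10x Chromium 3′ chemistry and sequenced on a NextSeq 500. Cell Ranger made the deposited tables of UMI counts per gene and barcode, version 3.1.0 per the submitters' processing notes and 3.0.2 per the file headers, on mm10. The deposited barcodes were used as they were, and no doublet caller was run; the study's own upper limits on genes and counts stood in as an alternative. Sums of counts per library and cell class were fitted with edgeR 4.0.16 (TMM scaling, filterByExpr, quasi-likelihood test) in libraries with 20 or more members, with 1 coefficient per stage. The SE printed with a log2 difference is its absolute value divided by the square root of the F value of that test. DESeq2 1.42.0 was an alternative. Both libraries of pregnancy day 12.5 held under 20 members and were left out. Rows of 8 milk genes were removed from totals and tests. Ratios between classes had 5 CPM added. The fit was tested on simulated data. Binomial intervals are exact (Clopper-Pearson, 95%) and cover counting error only.

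Members, gene lists and tests were chosen with earlier results of these data known. Genes were named where they belonged to the rule or its markers; where they were among the largest called changes with separate libraries and at least 2-fold over immune cells; where they were called, or were the highest, in one of 31 gene lists, or had a role the account needs; and as the 12 highest genes over other classes. Replicate numbers only name libraries; the study calls those of the adult, pregnancy and lactation stages biological replicates. The study's methods say that the post-involution library was prepared alongside an adult FVB/N library. An Epcam limit on immune and endothelial cells, and the removal of cells that met more than 1 rule from those classes, were added here. Some genes of these lists are not reported here.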

Additional observations from a re-analysis of the deposited data

Results flagged for a closer look

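The stage change differed between fibroblasts and endothelial cells for 34 genes by a test of the difference itself, in a fit with 1 residual degree of freedom that was added after seeing the data. On the log2 scale, the fibroblast change from lactation to post-involution minus the endothelial change was 4.80 for Igfbp3 (edgeR adjusted p = 4.0e-08), -3.14 for Postn (edgeR adjusted p = 0.00086), -4.18 for Mmp2 (edgeR adjusted p = 0.0011), -3.31 for Fbln2 (edgeR adjusted p = 0.0012) and -4.69 for Fabp4 (edgeR adjusted p = 8.2e-16). Fabp4 was at 2733, 2069.8 and 47.4 CPM in fibroblasts of F11, D6 and post-involution and at 36030, 41893 and 22889 CPM in endothelial cells, and 1 cell held 81.5% of the fibroblast UMIs in F11. After involution the endothelial sums held 4 UMIs of Igfbp3, 14 of Postn, 7 of Mmp2 and 12 of Fbln2. These genes were picked with their values in view, and the spread behind their p-values comes from F11 and D6 only.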

How the results depend on the processing

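No paired analysis was possible because the replicate numbers follow accession order and pair no libraries. The count of genes called between post-involution and lactation was 4, and it was 7 with no scaling factors, 55 with no filter on low counts, 9 with at least 1000 genes per cell (which leaves F11 out), 14 under the study's upper limits, 88 with the 3 libraries alone, 27 without D12, F4 and B4, and 0 with 20 or more collagen and decorin UMIs or with the stricter cell rule. DESeq2 called 5. Leaving out 1 library at a time gave 2 (without A10) to 26 (without D12), with 15 without F4, 19 without P7, 9 without F11 and 8 without D6. The count between lactation and adult was 85, and it was 172 with no filter, 29 with 20 or more collagen and decorin UMIs, 21 with the stricter rule and 44 with at least 1000 genes. Leaving out 1 library at a time gave 15 (without D6) to 113 (without P7), with 43 without F11 and 51 without the post-involution library. The cause of these shifts was not tested. Among the named genes, 3 log2 values turned sign between the stages: Clec3b to 0.0493 and Pi16 to -0.0596 with at least 1000 genes, and Pi16 to -0.2083 without F11, against 0.6983 without D6. In the settings with 0 calls, 138 genes (20 or more collagen and decorin UMIs) and 121 (stricter rule) had an unadjusted p under 0.05 by edgeR. The share of cells that met the rule moved to 0.749% in F11 and 5.04% in D6 with 20 or more collagen and decorin UMIs, and to 0.621% and 5.02% with at least 1000 genes. The test against endothelial cells was run in 1 setting only. Leaving out F11 or D6 leaves no residual degree of freedom, and a fit without A10 was not run. The shallowest sums of the fit were those of P7 and F11, with 94204 and 106200 UMIs.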
